A study of Mus musculus with 30 samples.

Results

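Foxp3 was returned alone, by retrovirus, to regulatory T cells (Treg) that carried neither functional Foxp3 nor Batf, and their chromatin accessibility was compared with that of the same cells given a mock virus. The comparison took all 69316 peaks of 1 deposited table and 4 of the 30 samples of the series, with 26 libraries in that table. The recipient cells had the genotype Foxp3KO-IRES-hCD2.Batf-/- (double knockout, DKO), so that both genes were missing in every DKO group, controls included. The groups were mockRV_DKOTreg (2 libraries) and Foxp3RV_DKOTreg (2 libraries), and BATFRV_DKOTreg and Foxp3BATFRV_DKOTreg (2 libraries each) served to compare the effect of Foxp3 when BATF was returned as well. All DKO libraries came from lymph nodes and spleen and were sorted as CD4+hCD2+ cells that were also CD45.2+, CD45.1-, GFP+ and Thy1.1+, where hCD2 is human CD2 expressed from the Foxp3 locus and stands for transcription of that locus rather than for Foxp3 protein. The deposited names of the DKO libraries contain the word vivo, but no label describes a host animal. The labels do not say what GFP and Thy1.1 report, or the animals' age or strain. Nor do they say whether the libraries of a group came from separate animals. The spread behind the p-values is therefore that between libraries and may be technical. WT Treg (CD4+hCD2+) and WT conventional T cells (Tconv, CD4+hCD2-) of Foxp3-IRES-hCD2 mice on C57BL6/J, 2 libraries each, gave a reference that shares no library with the DKO groups.

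Foxp3 is the forkhead transcription factor that defines Treg, the CD4+ T cells that restrain other immune cells. It binds largely at sites that are already open in T cell precursors, and is known both for silencing cytokine genes such as Il2 and for supporting genes such as Il2ra and Ctla4. BATF is an AP-1 family factor that pairs with Jun proteins and with IRF4, and is known for the effector state of Treg in tissues. ATAC-seq marks open chromatin by the insertions of a transposase, and the deposited score of a peak is its read number scaled for the library.

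Most peaks that changed lay away from gene starts. RefSeq promoter windows (250 bases before to 50 after the start site, GRCm38.p6, the NCBI name of mm10) overlapped 11 of the 701 peaks that were higher with Foxp3RV (1.57%) and 10 of the 564 that were lower (1.77%), against 8426 of all 69316 peaks (12.2%). The stretches of window that lie inside 4 of these peaks are shown because their genes are named below: Ccr6 belonged to a higher peak, and Cxcr6, Themis and Emp1 to lower ones. All are on the plus strand and read 5′ to 3′, at chr17:8242276-8242575, chr9:123806293-123806526, chr10:28668197-28668444 and chr6:135362681-135362955 in that order. Capitals mark matches to the searched motifs.
Ccr6: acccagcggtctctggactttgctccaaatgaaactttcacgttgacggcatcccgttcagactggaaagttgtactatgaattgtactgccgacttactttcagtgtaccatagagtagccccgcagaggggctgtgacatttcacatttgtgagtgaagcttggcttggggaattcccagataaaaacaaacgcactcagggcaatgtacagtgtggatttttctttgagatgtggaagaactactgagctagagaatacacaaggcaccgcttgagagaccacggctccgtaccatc
Cxcr6: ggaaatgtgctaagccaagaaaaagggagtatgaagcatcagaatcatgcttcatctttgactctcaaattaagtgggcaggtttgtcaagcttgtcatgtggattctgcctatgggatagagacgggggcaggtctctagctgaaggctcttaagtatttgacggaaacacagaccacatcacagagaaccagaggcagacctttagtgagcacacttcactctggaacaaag
Themis: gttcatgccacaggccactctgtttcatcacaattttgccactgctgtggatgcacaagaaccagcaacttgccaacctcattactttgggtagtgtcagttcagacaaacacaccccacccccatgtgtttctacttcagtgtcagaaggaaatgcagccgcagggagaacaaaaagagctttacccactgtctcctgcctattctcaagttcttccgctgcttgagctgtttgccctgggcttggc
Emp1: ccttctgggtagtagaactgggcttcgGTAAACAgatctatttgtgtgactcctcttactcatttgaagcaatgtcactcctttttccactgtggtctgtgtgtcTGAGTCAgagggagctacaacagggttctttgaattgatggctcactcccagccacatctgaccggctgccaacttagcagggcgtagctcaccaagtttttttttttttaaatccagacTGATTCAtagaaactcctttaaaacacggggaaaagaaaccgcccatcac
The search covered TGTTTAC (forkhead), TGANTCA (AP-1), CCGGAAG (ETS), TGTGGTT (RUNX), AGGGGGC (CTCF core), GAAANNGAA (IRF) and CTTTGAT (TCF) on both strands. The Emp1 stretch held 1 forkhead match and 2 AP-1 matches, which did not overlap each other, and the stretches of Ccr6, Cxcr6 and Themis held no match. Over whole windows, the forkhead letters were in 0 of 11 windows at higher peaks, in 1 of 11 at lower peaks, in 3.005% of all 21263 windows and in 2.35% of the 9916 windows under any peak. The AP-1 letters were in 3 of the 11 windows at lower peaks (Nebl, 1810058I24Rik and Emp1), in 0 of 11 at higher peaks, in 6.99% of all windows and in 4.42% of those under any peak. Of the other motifs, windows at higher peaks held RUNX in 1, the CTCF core in 2 and IRF in 1, and windows at lower peaks held IRF in 2. These are matches of letters, in too few windows to set the groups apart, and the sequences of the peaks away from promoters were not analysed here.

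Reads in peaks numbered 10235116 and 13084571 in the mockRV libraries and 9677657 and 7647075 in the Foxp3RV libraries, and 3716499 to 25462278 over the 26 libraries. At the peak over the Batf start site (chr12:85686411-85686811) the mockRV libraries had 2 and 0 reads and the Foxp3RV libraries 0 and 8, while WT Treg had scores of 265 and 312, so the deletion was visible in all 4 libraries. A Foxp3 gene peak (chrX:7583922-7584322) was open in all 4, with scores of 665 and 1119 in mockRV and 655 and 993 in Foxp3RV, and it says nothing about the virus. Over the 34658 peaks above the median score, Pearson's r on log2(score + 1) was 0.977 between the mockRV libraries, 0.965 between the Foxp3RV libraries, and 0.971 and 0.967 between libraries of the same number across the groups, about as high across groups as within them. Summed scores over 112 peaks of 8 T cell and Treg genes were 16305 and 21051 in mockRV and 16364 and 20105 in Foxp3RV. The sums of B cell markers did not overlap, with 720.0 and 746 in mockRV and 972 and 1010 in Foxp3RV over 21 peaks of 6 of 9 genes, and Ms4a1 and Cd79a had no peak. Those of CD8 and NK cell markers did not overlap either (4060 and 4365 in mockRV, 4000.3 and 3540 in Foxp3RV over 44 peaks of 10 genes). Myeloid markers (3708 and 4349 against 3691 and 4092, 37 peaks of 8 of 13 genes) and erythroid markers (868 and 900.3 against 830.4 and 889, 6 peaks of 4 of 6 genes) overlapped. The part of other cell types in the results was not tested, and in bulk libraries fewer cells of a type cannot be told apart from less accessibility per cell.

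With Foxp3 alone, 701 peaks were higher and 564 lower (limma, Benjamini-Hochberg adjusted p under 0.05, 1.82% of all peaks, 1.01% higher and 0.814% lower). Peaks that rose had a median score of 7.60 in mockRV and 29.3 with Foxp3RV, a median log2 change of 1.83. Peaks that fell had a median score of 65.3 in mockRV and 23.5 with Foxp3RV, a median log2 change of -1.45. Over all peaks the median scores were 39.5 and 40.4. The same 4 libraries chose the called peaks, so these levels and changes follow in part from the call. All changes are on the scale of log2(score + 1), which understates the change of low peaks, and the median change over all peaks was -0.03. The median score of the higher peaks was 7.38 and 6.84 in the mockRV libraries and 26.9 and 32.2 in the Foxp3RV libraries. For the lower peaks it was 61.1 and 70.4 in mockRV against 23.7 and 23.8 in Foxp3RV. The groups did not overlap at the called peaks, which follows from the call, nor at 24738 of all 69316 peaks (35.7%), and 101 of the higher and 49 of the lower peaks had under 20 reads over the 4 libraries. The median SE of a change was 0.34, and 9383 peaks had an unadjusted p under 0.05. Calls fell to 321 without mockRV replicate 2, to 564 without Foxp3RV replicate 2, to 169 with only the 4 DKO groups in the fit, to 336 after quantile scaling and to 62 when tested against a 1.5-fold change. They numbered 1882 without Foxp3RV replicate 1 and 1372 without mockRV replicate 1. The balance of directions turned with the libraries: 55.4% of calls were higher as reported, 38.7% without Foxp3RV replicate 1 (728 higher, 1154 lower), 30.3% without Foxp3RV replicate 2 (171 and 393), 69.0% without mockRV replicate 1 (946 and 426) and 72.3% without mockRV replicate 2 (232 and 89). With total scores set equal it was 65.8%.

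The 10 rises described first are the largest among called peaks whose mean score over all 26 libraries was above the median of 48.6, with 1 peak per gene. Larger rises were called at peaks outside this choice, up to 4.36. Pard3 encodes a cell polarity scaffold, and a peak in its body (chr8:127441140-127441540) had scores of 17.9 and 15.6 in mockRV and 93.6 and 153 in Foxp3RV. That is a log2 change of 2.77 ± 0.39 (SE; limma adjusted p = 0.000274), and both Foxp3RV libraries lay far above both mockRV libraries. A peak 40972 bp from Papolg, which encodes a poly(A) polymerase, had 10.5 and 4.89 in mockRV and 53.8 and 50.7 in Foxp3RV, a log2 change of 2.69 ± 0.38 (adjusted p = 0.000274). Layn encodes layilin, a hyaluronan receptor known from tumour Treg, and a peak 21481 bp from it (chr9:51033142-51033542) rose from 15.8 and 16.6 to 67.8 and 93.6. Its log2 change was 2.23 ± 0.30 (adjusted p = 0.000158). In the body of Gxylt2, which encodes a xylosyltransferase of Notch, scores of 11.6 and 8.80 in mockRV stood against 39.8 and 69.1 in Foxp3RV (2.27 ± 0.37, adjusted p = 0.00124). Colq, which encodes the collagen tail of acetylcholinesterase, had 4.22 and 1.96 against 21.5 and 23.0 (2.57 ± 0.30, adjusted p = 3.17e-05). That mean includes the WT libraries, so the WT levels of these peaks are a description: in WT Treg and Tconv the means were 74.6 and 18.2 at Pard3, 85.2 and 23.5 at Papolg, 79.6 and 11.4 at Layn, 167 and 12.2 at Gxylt2, and 81.6 and 39.1 at Colq. The other peaks among the 10 were at E130308A19Rik, Map4k5 (a kinase of the JNK pathway), Dnase1l3 (a nuclease that digests chromatin), Runx2 (a runt-family factor of bone) and Kcnh8 (a potassium channel), with log2 changes from 2.39 to 2.53. Their means in WT Treg and Tconv were 285 and 30.9, 109 and 42.0, 73.5 and 11.1, 97.8 and 11.6, and 120 and 161, so Kcnh8 was lower in Treg. Several of the 10 had low scores in mockRV and Foxp3RV and passed the limit on the mean through other groups. Kcnh8, for example, had 2 and 2 reads in mockRV and 15 and 9 in Foxp3RV. Of the 10 calls, 7 held when each of the 4 libraries was left out in turn, and those at E130308A19Rik, Dnase1l3 and Runx2 were lost without mockRV replicate 2, the first and last also without Foxp3RV replicate 2 (adjusted p up to 0.309 over the libraries left out).

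The 10 falls were chosen in the same way, and several of them had low scores in the DKO libraries and passed the limit on the mean through other groups. Aqr encodes a helicase of the spliceosome, and a peak in its body (chr2:114136745-114137145) had scores of 85.4 and 84.1 in mockRV and 3.23 and 16.9 in Foxp3RV. Its log2 change of -3.30 ± 0.44 (adjusted p = 0.00013) was the largest among the lower peaks named here, and its mean score was 16.0 in WT Treg and 473 in Tconv. Dapl1, a gene known from naive and memory T cells, fell at 3 of its peaks. The strongest of them (chr2:59527667-59528067, 22647 bp from the gene) had 55.9 and 62.6 in mockRV and 5.38 and 10.7 in Foxp3RV, a change of -2.80 ± 0.43 (adjusted p = 0.000765). At Bpgm, which encodes the enzyme that makes 2,3-bisphosphoglycerate, scores of 88.6 and 122 fell to 16.1 and 23.0 (-2.37 ± 0.30, adjusted p = 7.66e-05). Cblb encodes a ubiquitin ligase that restrains T cell activation, and a peak 21414 bp from it had 16.9 and 14.7 in mockRV against 1.08 and 4.6 in Foxp3RV (-2.29 ± 0.50, adjusted p = 0.0143). At Chl1, an adhesion molecule gene, the Foxp3RV libraries had no read and the mockRV libraries had scores of 5.27 and 6.84, which against a floor of 3 reads per library is at least 1.55-fold lower. At Ctnnd2 (a catenin gene) the Foxp3RV libraries had 1 read in all and the mockRV libraries 18, a ratio of 14.4 with a 95% counting interval of 2.28 to 601.5. Nebl, Hhat (an acyltransferase for Hedgehog), Tnks (a tankyrase) and Bend7 made up the 10, with changes from -2.66 to -2.10. The calls at Cblb and Ctnnd2 were lost without mockRV replicate 1, mockRV replicate 2 or Foxp3RV replicate 1, and that at Bend7 without mockRV replicate 2 (adjusted p up to 0.229).

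**Figure D1:**
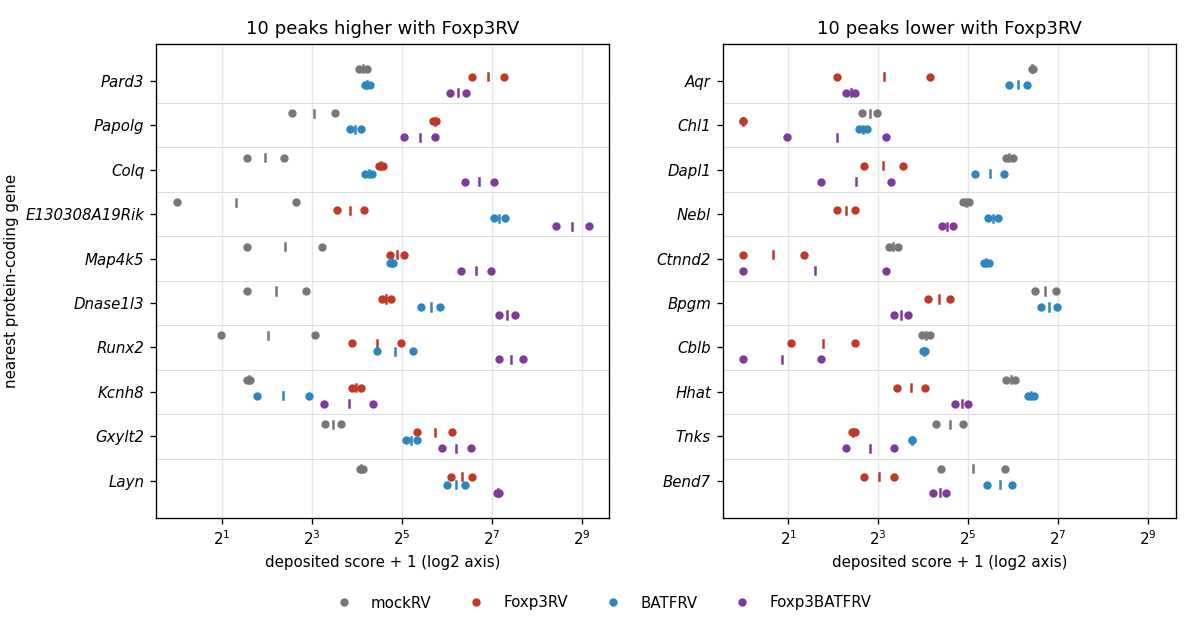
Deposited scores plus 1 (log2 axis) in each library of the 4 DKO groups at the 10 called peaks with the largest rise and the 10 with the largest fall with Foxp3RV among those with a mean score over all 26 libraries above 48.6, 1 per gene, named by the nearest gene. Points are libraries and short bars the mean of the logs; the red Foxp3RV points lie to the right of the grey mockRV points in the left panel and to the left of them in the right panel, as at Pard3 (93.6 and 153 against 17.9 and 15.6) and Aqr (3.23 and 16.9 against 85.4 and 84.1).

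Several genes carried a group of changed peaks. Lclat1, which encodes an acyltransferase of cardiolipin, had 6 higher peaks of 32 assigned to it, with log2 changes from 0.94 to 2.60. The best covered (chr17:73246884-73247284, 3516 bp from the gene) had scores of 78.0 and 93.8 in mockRV and 243 and 367 in Foxp3RV, a change of 1.79 ± 0.24 (adjusted p = 0.000167). Phlpp1, which encodes a phosphatase that acts on Akt, had 6 higher of 25 peaks. At the one in its body with the highest scores these were 86.4 and 45.0 in mockRV and 170.0 and 134 in Foxp3RV (1.26 ± 0.34, adjusted p = 0.0468). Rin2, which encodes an exchange factor of Rab5, had 5 higher peaks of 15, all within its body. At chr2:145832341-145832741 scores of 167 and 184 rose to 295 and 381 (0.93 ± 0.18, adjusted p = 0.00579), and at chr2:145841551-145841951 scores of 8.43 and 9.78 rose to 49.5 and 43.0 (2.22 ± 0.28, adjusted p = 7.66e-05). The last Rin2 peak (start 145845876) had 1 read over both mockRV libraries and 25 over both Foxp3RV libraries, a ratio of 31.2 with a counting interval of 5.10 to 1280. Nebl, which encodes an actin-binding protein, had 5 lower peaks of 18. At its most open called peak (chr2:17671690-17672090) scores of 548 and 761 fell to 200.1 and 272 (-1.47 ± 0.24, adjusted p = 0.00107), and WT Treg and Tconv had means of 134 and 643. Dennd4c (an exchange factor of Rab10) had 4 lower of 9 peaks, of which the strongest (chr4:86721846-86722246) fell from 350.0 and 331 to 83.9 and 123 (-1.74 ± 0.23, adjusted p = 0.000136). Itpr1, the IP3 receptor gene, had 1 higher and 3 lower of 47 peaks, so that peaks of 1 gene moved in both directions. These genes were chosen for their number of called peaks, so the counts are a description.

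The direction of the Foxp3RV changes followed the direction of the difference between WT Treg and WT Tconv. Of the 701 higher peaks, 348 (49.6%) were also higher in WT Treg than in Tconv and 10 (1.43%) were lower. Of the 564 lower peaks, 358 (63.5%) were lower in WT Treg and 11 (1.95%) higher. Over all peaks, 10.1% were called higher and 9.92% lower in WT Treg (20% in all). Both comparisons used the same estimate of the spread at each peak, so their calls are not fully independent. The reverse shares were small: the 348 peaks were 4.96% of the 7012 peaks higher in WT Treg, and the 358 were 5.21% of the 6878 lower ones. Without a call for Foxp3RV as a condition, the median change with Foxp3RV was 0.28 at the 7012 peaks and -0.34 at the 6878, against -0.03 at the 55426 peaks not called in WT cells. The median score at the 7012 peaks was 36.9 and 37.1 in the mockRV libraries and 48.4 and 50.7 in the Foxp3RV libraries, without overlap. At the 6878 peaks it was 42.2 and 46.9 in mockRV and 32.3 and 36.8 in Foxp3RV, also without overlap. WT libraries were made by ATAC-seq and DKO libraries are titled omniATAC-seq, so levels were not compared between them.

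**Figure D2:**
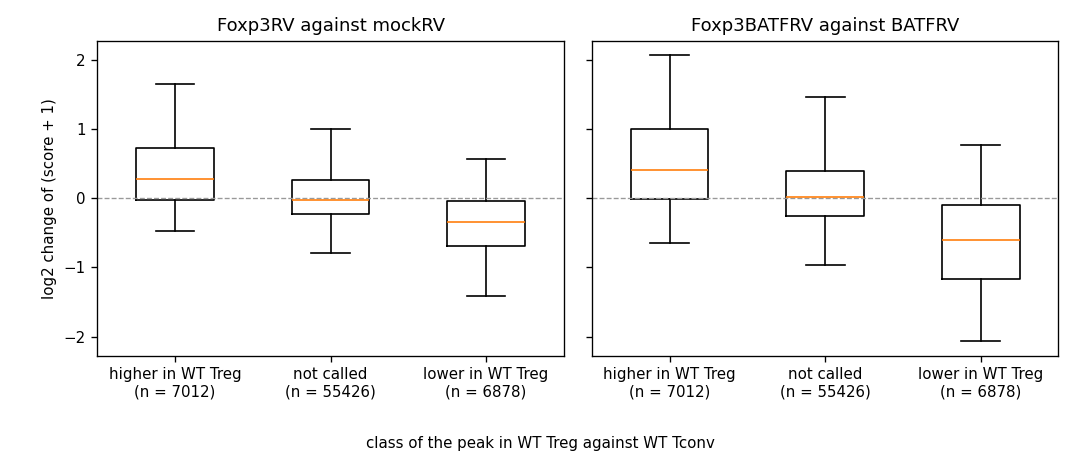
Change of log2(score + 1) with Foxp3 in the absence of BATF (left) and with BATF returned too (right), for peaks that were higher (n = 7012), not called (n = 55426) or lower (n = 6878) in WT Treg against WT Tconv. Boxes give the quartiles, the line the median and whiskers the 5th and 95th percentiles; medians were 0.28, -0.03 and -0.34 on the left and 0.41, 0.02 and -0.61 on the right.

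A list of genes known from earlier work as silent in Treg had a lower median. Of 153 peaks at 13 such genes, 0 were called higher and 4 lower (2.61%, against 1.82% over all peaks, 1.01% higher and 0.814% lower), and the median change was -0.27, against -0.03 over all peaks. Il2 encodes the T cell growth factor that Treg do not make, and a peak 26339 bp from it (chr3:37152293-37152693) had scores of 304 and 351 in mockRV and 158 and 221 in Foxp3RV. Its change was -0.80 ± 0.21 (adjusted p = 0.0387), and its means were 153 in WT Treg and 482 in Tconv. Pde3b encodes a phosphodiesterase known as a Foxp3-repressed gene, and a peak in its body fell from 39.0 and 32.3 to 12.9 and 6.14 (-1.87 ± 0.32, adjusted p = 0.00205). Themis, a T cell receptor signalling gene, fell at the promoter shown above, from 475 and 664 to 272 and 365 (-0.83 ± 0.18, adjusted p = 0.0154), and at a peak in its body. Unlike the Il2 peak, these were not lower in WT Treg than in Tconv. The means in WT Treg and Tconv were 100.4 and 100.1 at the Pde3b peak and 629 and 488 at the Themis promoter. At Satb1, the chromatin organiser gene, the peak with the smallest p had 275 and 359 in mockRV and 198 and 229 in Foxp3RV, a change of -0.56 ± 0.18 that did not pass (adjusted p = 0.107). At the effector cytokine list as a whole, 1 of 99 peaks was higher, near Xcl1 (a chemokine gene; 3 mockRV reads and 17 Foxp3RV reads, a ratio of 7.07 with a counting interval of 2.04 to 37.6), and 1 lower, near Il2. A peak 34895 bp from Ifng had 50.6 and 40.1 in mockRV and 18.3 and 23.0 in Foxp3RV, a change of -1.10 ± 0.39 that did not pass (adjusted p = 0.165). Calls at single genes of the lists were fragile: that at Il2 was lost without mockRV replicate 1, mockRV replicate 2 or Foxp3RV replicate 1 (adjusted p up to 0.29), that at Pde3b without Foxp3RV replicate 2 (0.061), and that at the Themis promoter without mockRV replicate 2 or Foxp3RV replicate 1 (up to 0.281). The Xcl1 call was lost without replicate 2 of either group (up to 0.489).

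The share of changed peaks at genes that define Treg was near that over all peaks. The list of Treg identity genes held 308 peaks at 21 genes, of which 4 rose and 2 fell (1.95%, near the 1.82% over all peaks), with a median change of -0.0037. Ikzf2, which encodes Helios, was higher at 2 peaks in its body. The more open one (chr1:69555732-69556132) had 52.7 and 61.6 in mockRV and 123 and 93.6 in Foxp3RV, a change of 0.90 ± 0.22 (adjusted p = 0.0265). Gpr83, a receptor gene known as a Treg marker, rose from 17.9 and 9.78 to 47.3 and 32.2 at a peak 2220 bp away (1.49 ± 0.32, adjusted p = 0.0125). Nt5e, which encodes the ectonucleotidase CD73, fell in its body from 86.4 and 89.0 to 26.9 and 35.3 (-1.48 ± 0.29, adjusted p = 0.00579), and WT Treg were lower there than Tconv (means 56.6 and 148). Nrp1, the neuropilin gene, fell at a peak 89504 bp away, from 74.8 and 56.7 to 18.3 and 24.6 (-1.58 ± 0.33, adjusted p = 0.0104), and rose at another where the mockRV libraries had 4 reads in all. No peak of Foxp3, Il2ra, Ctla4 or Lrrc32 was called. At its peak with the smallest p, Ctla4, the inhibitory receptor gene, had 112 and 135 in mockRV and 156 and 201 in Foxp3RV, with no overlap and a change of 0.52 ± 0.28 (adjusted p = 0.42). Il2ra, the IL-2 receptor alpha chain gene, had 21.1 and 13.7 against 30.1 and 59.9 (1.27 ± 0.46, adjusted p = 0.171). Lrrc32, which encodes the TGF-beta anchor GARP, had 115 and 130.01 against 167 and 198 (0.57 ± 0.25, adjusted p = 0.282). The call at Ikzf2 was lost without either mockRV replicate or Foxp3RV replicate 1 (adjusted p up to 0.149), that at Gpr83 without mockRV replicate 2 or Foxp3RV replicate 1 (0.237), that at Nrp1 without replicate 1 of either group (0.0744) and that at Nt5e without mockRV replicate 2 (0.0589).

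Of 316 peaks at 26 effector Treg genes, the group tied to BATF, 3 were called higher and 3 lower (1.90%, near the 1.82% over all peaks, median change -0.01). A peak 12521 bp from Areg, which encodes the tissue repair factor amphiregulin, rose from 19.0 and 16.6 to 59.2 and 53.7 (1.61 ± 0.41, adjusted p = 0.0365). Klrg1, a marker of terminally differentiated cells, rose in its body from 20.03 and 16.6 to 43.0 and 50.7 (1.31 ± 0.34, adjusted p = 0.0431). Cd44, the adhesion receptor of activated cells, fell at 2 body peaks, at one of them from 45.3 and 53.8 to 26.9 and 10.7 (-1.48 ± 0.33, adjusted p = 0.0172). A peak near the chemokine receptor gene Ccr2 fell from 14.8 and 12.7 to 5.38 and 0 (-2.54 ± 0.65, adjusted p = 0.0382). The third call of the higher peaks lay at Batf, which is deleted in these cells; there the mockRV libraries had 0 reads and the Foxp3RV libraries 1 and 2, all at or under the floor of 3 reads, so no fold is given. At Il10, Irf4, Icos, Prdm1, Maf and Tigit no peak passed. The call at Klrg1 and that at Areg were lost whichever of the 4 libraries was left out (adjusted p from 0.0639 to 0.274 and from 0.0795 to 0.224). The Cd44 call was lost without replicate 2 of either group (up to 0.298) and the Ccr2 call without either mockRV replicate or Foxp3RV replicate 2 (up to 0.467).

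Of 455 peaks at 18 genes of naive and central T cells, 4 were called higher and 3 lower (1.54%, below the 1.82% over all peaks, median change -0.08). The 3 lower peaks were all near Dapl1. A peak in Lef1, the HMG-box factor of naive T cells, rose from 7.38 and 3.91 to 28.0 and 23.0 (2.04 ± 0.43, adjusted p = 0.0109), and one in Bach2, a repressor of effector genes, from 11.6 and 13.7 to 31.2 and 41.4 (1.44 ± 0.36, adjusted p = 0.0343). A peak in Foxp1, a forkhead gene related to Foxp3, had 3 reads over the mockRV libraries and 22 over the Foxp3RV libraries, a ratio of 9.14 with a counting interval of 2.75 to 47.7. The fourth was in Ets1. These rises were at peaks of low score, and the much more open peaks of Tcf7 and Ccr7 went the other way without a call. The Tcf7 peak, at a gene for a naive T cell factor, had 219 and 240.5 in mockRV and 173 and 138 in Foxp3RV (-0.57 ± 0.24, adjusted p = 0.254). Ccr7, the lymph node homing receptor gene, had 247 and 250.2 against 155 and 147 (-0.71 ± 0.30, adjusted p = 0.254). The Bach2 call was lost without either mockRV replicate or without Foxp3RV replicate 2 (adjusted p up to 0.209), and the Lef1 call without mockRV replicate 2 (0.17).

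Receptor and signalling genes completed the lists. Of 243 peaks at 21 genes for factors induced by the T cell receptor, 6 were higher and 0 lower (2.47%, against 1.82% over all peaks). They were 5 peaks of Tox, an HMG-box factor of chronically stimulated T cells, among its 42 peaks, and 1 peak 75263 bp from Egr2, a zinc finger factor of T cell activation. The Tox peak at chr4:6748269-6748669 rose from 23.2 and 17.6 to 59.2 and 93.6 (1.83 ± 0.30, adjusted p = 0.001) and stayed called with each library left out (adjusted p up to 0.0321). The Egr2 peak rose from 6.33 and 6.84 to 28.0 and 47.6 (2.31 ± 0.40, adjusted p = 0.00228), with means of 76.3 in WT Treg and 5.04 in Tconv, and was lost without Foxp3RV replicate 2 (0.0512). Of 113 peaks at 15 chemokine receptor genes, 1 was higher and 3 lower (3.54%, against 1.82% over all peaks). Ccr6, a receptor of mucosal homing, rose at the promoter shown above from 26.4 and 15.6 to 74.2 and 70.6 (1.78 ± 0.39, adjusted p = 0.015), with WT means of 84.8 in Treg and 11.5 in Tconv. Cxcr6 fell at its promoter from 183 and 229 to 66.7 and 127 (-1.14 ± 0.26, adjusted p = 0.0172), and Ccr1 at a peak 1562 bp away from 38.0 and 38.1 to 10.8 and 9.21 (-1.83 ± 0.35, adjusted p = 0.00536). The calls at Ccr6 and Cxcr6 were lost without mockRV replicate 2, and also without Foxp3RV replicate 2 at Ccr6 (adjusted p up to 0.221) and Foxp3RV replicate 1 at Cxcr6 (0.211), and that at Ccr1 was lost without mockRV replicate 2 (0.0524). Among 276 peaks of forkhead and IL-2 signalling genes (1.45% called), 3 were higher (Foxp1, Foxo3 and Stat5b) and 1 lower (Jak1, from 175 and 246 to 97.9 and 124). Of 189 peaks of helper lineage factors, 1 in Stat4 was higher (0.529%). The calls at Stat4 and Klrd1 were lost without replicate 2 of either group (adjusted p up to 0.311 and 0.204), that at Foxo3 without either mockRV replicate or Foxp3RV replicate 2 (0.189), and that at Stat5b without mockRV replicate 1 or Foxp3RV replicate 2 (0.293). Of the marker lists of other cells, 1 peak was lower, at the NK cell receptor gene Klrd1, and none of 21 B cell, 37 myeloid, 6 erythroid and 40 housekeeping peaks was called by limma, with 6, 3, 0 and 1 of them at an unadjusted p under 0.05. Over all peaks 9383 of 69316 were under that limit, so the B cell share was above it and the other 3 below. The share of CD8 and NK cell peaks, 10 of 44, was also above it. The median change was 0.37 at B cell peaks, the highest of the lists, and -0.18 at CD8 and NK cell peaks. It was -0.05, -0.07 and -0.12 at myeloid, erythroid and housekeeping peaks, against -0.03 over all peaks. Beyond the lists, peaks over promoters rose at Sdc4 (a syndecan; 68.5 and 64.5 to 200.1 and 163), Cd81 (a tetraspanin; 94.9 and 81.1 to 156 and 161) and Lims1 (an adhesion adaptor; 34.8 and 46.9 to 81.7 and 92.1). They fell at Emp1 (a membrane protein; 217 and 243 to 80.7 and 90.6) and Pou2af1 (a coactivator of octamer factors; 539 and 667 to 285 and 335). These 5 genes were picked after their values were seen.

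**Figure D3:**
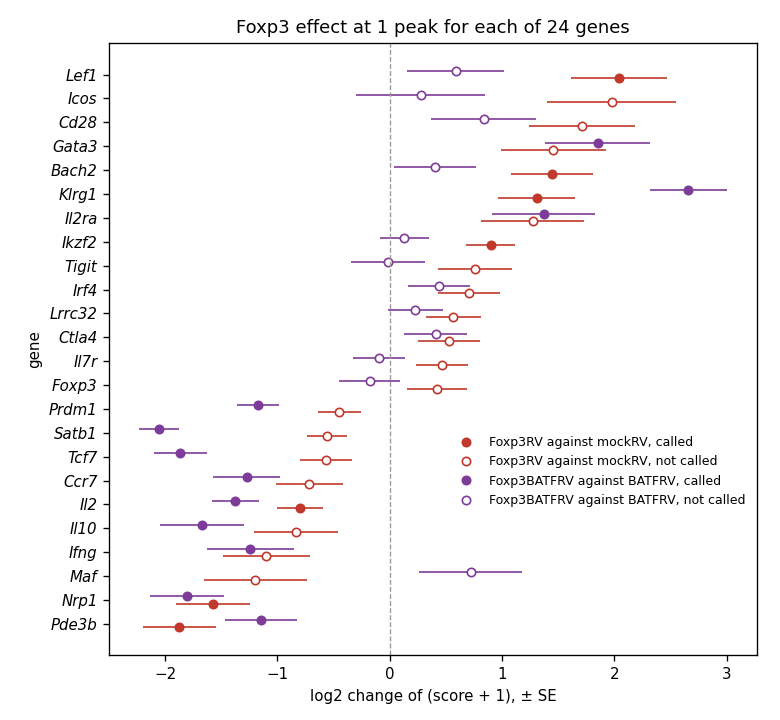
Log2 change of score + 1 with its SE at the peak with the smallest p of 24 Treg and T cell genes, for Foxp3RV against mockRV and for Foxp3BATFRV against BATFRV; filled points passed the limma test. Without BATF 7 of the 24 were called, among them Lef1 (2.04) and Pde3b (-1.87), and Satb1 moved from -0.56 without BATF to -2.06 with it.

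Where BATF was returned as well, 4905 peaks were higher and 4857 lower with Foxp3 (14.1% of all peaks, 7.08% higher and 7.01% lower). This comparison of Foxp3BATFRV with BATFRV shares no library with that of Foxp3RV with mockRV. It does share the estimate of the spread at each peak, so a peak with a small spread is more readily called in both. Of the 701 peaks that rose with Foxp3 alone, 315 (44.9%) rose and 2 fell with Foxp3 in the presence of BATF, and the median change was 1.05. Of the 564 that fell, 337 (59.8%) fell and 8 rose, with a median of -1.16. The 315 were 6.42% of the 4905 and the 337 were 6.94% of the 4857. Of the 348 peaks that rose with Foxp3 alone and were higher in WT Treg, 198 rose with BATF as well. Of the 358 that fell and were lower in WT Treg, 277 fell with BATF as well. Among all 7012 peaks higher in WT Treg, 1507 (21.5%) rose with Foxp3 in the presence of BATF. Among all 6878 lower in WT Treg, 2294 (33.4%) fell. The comparison of BATFRV with mockRV, which uses the same mockRV libraries as that of Foxp3RV, gave 2218 higher (3.2%) and 202 lower peaks (0.291%), 3.49% in all.

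**Figure D4:**
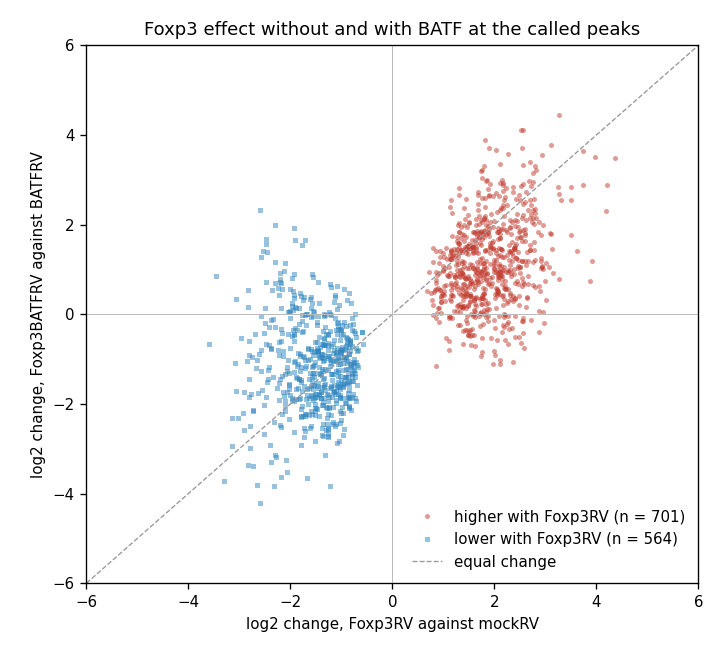
Log2 change with Foxp3 alone (x axis) and with Foxp3 when BATF was returned too (y axis) at the 701 higher and 564 lower peaks; the dashed line marks equal change. Most red points lie above 0 on the y axis and most blue points below it (medians 1.05 and -1.16), and the empty band around 0 on the x axis comes from the choice of called peaks.

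With BATF present more peaks were called in the gene lists, as over all peaks (14.1% against 1.82%). At naive and central genes 16 peaks were higher and 140 lower of 455 (34.3%), where Foxp3 alone gave 4 and 3, and the median change was -0.42 against -0.08. At the list of genes known as silent in Treg 3 were higher and 68 lower of 153 (46.4%), against 0 and 4, with medians of -0.91 and -0.27. At effector Treg genes 50 were higher and 14 lower of 316 (20.3%), against 3 and 3, with medians of 0.30 and -0.01. Forkhead and IL-2 signalling genes had 8 higher and 65 lower of 276 (26.4%), effector cytokines 6 and 19 of 99 (25.3%), chemokine receptors 11 and 12 of 113 (20.4%) and factors induced by the T cell receptor 23 and 22 of 243 (18.5%). Treg identity genes, with 35 higher and 19 lower of 308 (17.5%), and helper lineage factors, with 15 and 13 of 189 (14.8%), were the nearest of these lists to the share over all peaks. The difference between the effects of Foxp3 with and without BATF, tested peak by peak as an interaction, passed at 757 peaks (1.09%), 406 (0.586%) with a more positive and 351 (0.506%) with a more negative effect in the presence of BATF. That split turned to 231 and 413 with total scores set equal, to 186 and 246 with quantile scaling, to 251 and 342 in edgeR with TMM and to 142 and 516 without Foxp3BATFRV replicate 2. At Satb1 (chr17:51879203-51879603) BATFRV had 247 and 249 and Foxp3BATFRV 60.2 and 57.6, a change of -2.06 ± 0.18 against -0.56 ± 0.18 without BATF, and the difference of -1.50 ± 0.25 passed (adjusted p = 0.0041). The Tcf7 peak, with 174 and 149 in BATFRV and 35.0 and 54.1 in Foxp3BATFRV, differed by -1.30 ± 0.33 (adjusted p = 0.0492). At Pard3, Colq, Aqr, Dapl1 and Tox the difference did not pass (adjusted p from 0.625 to 0.985), with an SE of 0.42 to 0.62. It passed in limma at Nebl (start 17365609; 1.65, adjusted p = 0.0253), Foxp1 (-2.46, 0.0445), Ccr2 (3.94, 0.0351) and Itpr1 (start 108279137; 4.15, 0.00865). Among the 701 higher peaks it passed at 1 (more positive with BATF) and 24 (more negative), and among the 564 lower peaks at 37 and 16. The calls share libraries with this difference, so these counts are a description. No difference passed when only the 4 DKO groups entered the limma fit (0 peaks, with 6566 at an unadjusted p under 0.05), while edgeR on the recovered reads passed 593 with TMM and 485 with the deposited scaling.

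**Figure D5:**
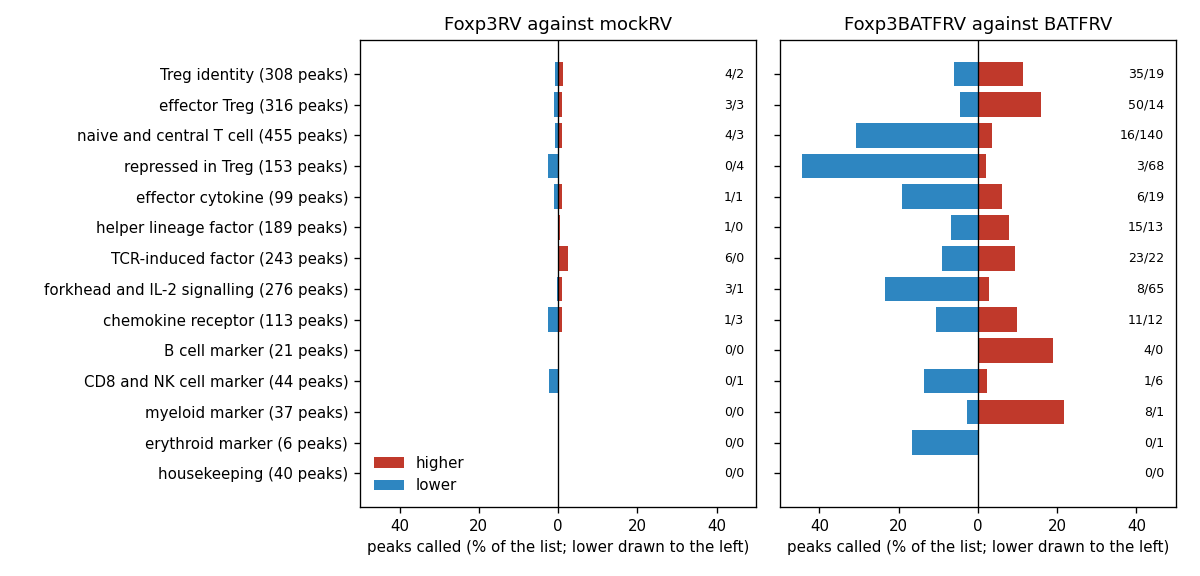
Share of the peaks of each gene list that were called higher (red, to the right) or lower (blue, to the left) with Foxp3 alone and with Foxp3 when BATF was returned too, in percent of the list; numbers at the right edge are the counts higher/lower. Bars on the left stay short, with at most 6 peaks higher and 4 lower in a list, and those on the right reach 68 lower of 153 peaks at genes known as silent in Treg.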

How the data were processed

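Freshly sorted mouse T cells were profiled by ATAC-seq or omniATAC-seq. The authors deposited a signal, a normalized score per peak. Per the submitters' processing notes the build was mm10 and the tools for the DKO libraries were edgeR 3.38.4, Bowtie2 2.4.1, DiffBind 3.0.15 and MACS2 2.2.7.1, with no settings stated. Scores were whole reads times 1 step per library (100% of values within 0.02), and edgeR 4.0.16 on these recovered reads was an alternative.

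Log2(score + 1) of all 26 libraries entered 1 limma 3.58.1 fit (R 4.3.3, trend and robust, 13 residual degrees of freedom, no replicate block), with Benjamini-Hochberg adjustment over 69316 peaks and a threshold of 0.05. The scripts were tested on simulated data. Peaks went to the nearest protein-coding gene body within 100 kb (RefSeq). Columns named Foxp3WTTreg were read as the Foxp3R397W control, and names of some libraries outside the comparisons differ between 2 deposited tables; both enter only through the shared variance. Members, gene lists and tests were chosen with earlier results of these data known. Named peaks were the 10 largest changes per direction among calls with an average score above the median (48.6) and no overlap, 1 per gene; 3 genes per list by smallest adjusted p; 25 fixed genes; and 5 peaks per direction for the difference. Other genes named for several called peaks, a promoter or a list call were picked after their values were seen. Alternatives changed the pseudocount, scaling, filter, samples in the fit, block, tool and libraries. Intervals cover counting error only.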

Additional observations from a re-analysis of the deposited data

Results flagged for a closer look

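The effect of Foxp3 differed with and without BATF at 757 peaks by an interaction test in limma, and the 10 with the smallest p are given here as the log2 effect with BATF minus that without. The effect was more positive with BATF at Plg (the plasminogen gene; 2.41, adjusted p = 0.000871), Fstl4 (3.37, 0.00215), Poli (a translesion DNA polymerase; 1.96, 0.0026), Dpy19l3 (a mannosyltransferase; 1.96, 0.0026) and Arhgap10 (4.30, 0.0026). At Fstl4 the scores were 23.2 and 26.4 in mockRV, 4.30 and 10.7 in Foxp3RV, 76.7 and 67.2 in BATFRV, and 207 and 256 in Foxp3BATFRV. Foxp3 alone lowered this peak (-1.71, adjusted p = 0.00778) and Foxp3 with BATF raised it (1.67, adjusted p = 0.0011), but the first of these calls was lost without Foxp3RV replicate 1 or mockRV replicate 2 (adjusted p up to 0.0989). At Arhgap10 the same opposite calls rest on 14 reads in mockRV and 1 in Foxp3RV, and the call with Foxp3 alone was lost without the same libraries (up to 0.133). The effect was more negative with BATF at Crispld2 (-2.91, adjusted p = 0.00197), Enpp1 (an ectonucleotidase; -2.41, 0.00215), Calcrl (the receptor of CGRP; -3.36, 0.00215), Rhobtb1 (-2.01, 0.0026) and Mfge8 (a bridge to dying cells; -1.98, 0.0026). At Crispld2 the scores were 8.43 and 11.7 in mockRV, 42.0 and 44.5 in Foxp3RV, 45.8 and 49.9 in BATFRV, and 20.4 and 31.1 in Foxp3BATFRV, so Foxp3 alone raised the peak (2.01) and Foxp3 with BATF lowered it (-0.90, adjusted p = 0.0323). At Calcrl both Foxp3BATFRV libraries had 0 reads, so the size of the difference depends on the pseudocount. At Enpp1 and Mfge8 the change with Foxp3 alone did not pass (-0.32 and -0.17). None of the 10 passed when only the 4 DKO groups entered the fit (adjusted p from 0.0781 to 0.23).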

How the results depend on the processing

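Calls for Foxp3RV against mockRV numbered 1265. They moved to 336 with quantile scaling, 169 with only the 4 DKO groups in the fit, 334 with only its own groups and 62 against a 1.5-fold change, and ranged from 321 to 1882 with 1 library left out. The lowest came without mockRV replicate 2, and 564 without Foxp3RV replicate 2. edgeR called 1126 with TMM. With BATF present, 9762 calls became 2129 against a 1.5-fold change, and ranged from 5237 (without BATFRV replicate 2) to 7261 with 1 library left out; without Foxp3BATFRV replicate 2 they were 6164. The 757 differences became 1519 with a pseudocount of 5, 432 with quantile scaling, 481 at mean scores of at least 20, 0 with only the DKO groups, 485 in edgeR with the deposited scaling and 12 against a 1.5-fold change, and ranged from 186 (without BATFRV replicate 2) to 1802 (without Foxp3RV replicate 1) with 1 library left out; they were 251 without Foxp3RV replicate 2, 398 and 502 without mockRV replicates 2 and 1, and 492 without BATFRV replicate 1. The 2420 calls for BATFRV against mockRV became 1566 with only the DKO groups and 943 against a 1.5-fold change, and ranged from 1460 (without BATFRV replicate 2; 1463 without mockRV replicate 2) to 2232 with 1 library left out. The 13890 calls between WT Treg and Tconv became 4811 against a 1.5-fold change, and ranged from 8332 (without WT Treg replicate 1) to 10167 with 1 library left out. Calls between WT Treg and Tconv rose to 16520 with a pseudocount of 5 and to 20321 with quantile scaling. The cause of these shifts was not tested. None of the 49 named calls that were followed through the settings changed sign. Other called peaks named here were not followed, among them those of Lclat1, Phlpp1, Rin2, Dennd4c, Itpr1, Jak1, Ets1, Sdc4, Cd81, Lims1, Emp1 and Pou2af1. The balance of higher and lower calls did turn: with a replicate block 1111 were higher and 1155 lower for Foxp3RV. With BATF present, lower calls outnumbered higher ones after quantile scaling (3585 higher, 4796 lower) and at mean scores of at least 20 (3358, 4544). They also did so with a replicate block (5837, 6047), without Foxp3BATFRV replicate 2 and without BATFRV replicate 1. Higher calls were the more numerous in the other settings.

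Replicate numbers 1 and 2 are shared by the groups, but no label says that they pair the samples. Same-numbered libraries deviated together (correlations of 0.371 to 0.477 over 6 group pairs), which 2 numbers cannot settle. With a replicate block 2266 peaks were called for Foxp3RV, including all 1265, and the difference passed at 1762. In other settings fewer of the 1265 were called again in the same direction: 808 among the 1126 in edgeR with TMM, 1006 among the 1294 with a pseudocount of 5, 336 with quantile scaling and 157 with only the 4 DKO groups. Leaving out 1 library also changed which peaks were called, so similar totals do not mean the same peaks. Of the 49 named calls, all 49 held under the block, 38 in edgeR with TMM, 32 with quantile scaling, 16 with only the DKO groups and 21 without mockRV replicate 2. In every setting more of the higher peaks were higher than lower in WT Treg, and more of the lower peaks were lower than higher. A filter of at least 20 reads over the comparison's libraries, chosen after seeing the data, left 1081 calls. With 2 libraries per group and 7647075 to 13084571 reads in peaks per DKO library, the smallest called change was 0.58 on the log2 scale. No sequence under peaks away from promoters was read.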
